A study of Homo sapiens with 23 samples.

Results

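The genes described are class I alcohol dehydrogenases and aldo-keto reductases of human lung fibroblasts. The list holds 8 genes: ADH1A, ADH1B, ADH1C, AKR1C2, AKR1C3, AKR1C4, AKR1B10 and AKR1B1. They were chosen from the same arrays, because their rise with cytokine pretreatment was much larger in cells of passage 6 than in cells of passage 8. An annotated probe was found for 7 of the 8, and all 7 were tested among 12994 genes. AKR1B1 had no annotated probe and was not analysed here, nor was AKR1C1, the closest relative of AKR1C2 and not a member.

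The cells were CCL-75, an established line of human lung fibroblasts, so the results describe 1 line. There were 23 samples in 6 groups, each hybridised to a single-colour bead array from Illumina. Control cells were left untreated (4 arrays) and IL13 cells received interleukin-13, a cytokine of allergic inflammation, for 20 hours (4 arrays). Pre_only cells received TNF and IL-17, a pair of inflammatory cytokines, for 72 hours (3 arrays), which is called priming here. Pre_IL13 cells were primed and then given IL-13 (4 arrays). Pre_Ab_only cells were primed and given a neutralizing antibody to the receptor IL-13Ra2 in the last 1 hour (4 arrays). Pre_Ab_IL13 cells received priming, antibody and IL-13 (4 arrays). Each group was run at passages 6 and 8 with replicates A and B, and the Pre_only group has only replicate B at passage 8. The labels call A and B technical replicates and do not say whether they came from separate cultures, so p-values describe only these arrays. In a model of group plus passage, the residual spread also holds group differences that change between passages. Each passage was hybridised to a single beadchip of its own, so passage, culture and beadchip cannot be told apart.

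Class I alcohol dehydrogenases oxidize ethanol and other alcohols, retinol among them, to aldehydes with NAD as cofactor, and are best known from liver. Aldo-keto reductases mostly run in the other direction and reduce aldehydes and ketones with NADPH. The AKR1C enzymes reduce and oxidize hydroxyl and keto groups of steroids, and AKR1C3 also makes prostaglandin F from prostaglandin D and active androgens from their precursors. AKR1B10 reduces retinal and other reactive aldehydes. Several AKR1 genes are textbook targets of NRF2, the transcription factor of the oxidative stress response.

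The promoter windows of the members are shown because members with closely similar upstream sequence differed in measured signal. In RefSeq, the 3 ADH1 genes lie side by side on chromosome 4, the AKR1C genes on chromosome 10 and the AKR1B genes on chromosome 7. Each window runs from 250 bases before to 50 bases after a RefSeq transcription start on GRCh38.p14, read 5′ to 3′ on the gene's strand. Windows were found for 7 of the 8 listed genes, all but AKR1B10. In the ADH1 windows, capitals mark the longest stretch, of 17 bases, that is identical in all 3 genes. The windows are ADH1A at chr4:99290936-99291235, ADH1B at chr4:99321352-99321651 and ADH1C at chr4:99352697-99352996, all on the minus strand.
ADH1A: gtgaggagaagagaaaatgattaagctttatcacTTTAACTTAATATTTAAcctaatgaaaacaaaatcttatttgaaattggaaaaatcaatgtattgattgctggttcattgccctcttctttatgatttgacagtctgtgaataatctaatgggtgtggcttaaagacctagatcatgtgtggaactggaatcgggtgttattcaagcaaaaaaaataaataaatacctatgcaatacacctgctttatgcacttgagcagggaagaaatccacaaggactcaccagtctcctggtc
ADH1B: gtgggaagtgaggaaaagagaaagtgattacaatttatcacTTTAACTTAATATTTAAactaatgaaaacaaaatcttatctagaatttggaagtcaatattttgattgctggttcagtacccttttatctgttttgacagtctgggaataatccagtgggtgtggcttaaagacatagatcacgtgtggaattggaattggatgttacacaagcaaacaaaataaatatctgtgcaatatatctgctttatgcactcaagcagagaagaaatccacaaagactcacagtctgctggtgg
ADH1C: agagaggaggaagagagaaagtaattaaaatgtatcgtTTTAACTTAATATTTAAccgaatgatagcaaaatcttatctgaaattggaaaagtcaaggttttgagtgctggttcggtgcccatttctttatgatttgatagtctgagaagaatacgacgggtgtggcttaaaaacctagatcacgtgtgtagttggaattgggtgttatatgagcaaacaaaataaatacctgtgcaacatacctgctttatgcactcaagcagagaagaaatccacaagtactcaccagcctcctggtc
In a global alignment, the ADH1A window was 81.9% identical to that of ADH1B and 82.2% identical to that of ADH1C, and ADH1B and ADH1C shared 81.3%. ADH1C therefore has an upstream sequence about as close to ADH1A as ADH1B has, while its signal stayed near background on every array. A silent gene and a probe that reads poorly cannot be told apart here.

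The AKR1C windows shown are AKR1C2 at chr10:5003808-5004107 on the minus strand and, on the plus strand, AKR1C3 at chr10:5094164-5094463 and AKR1C4 at chr10:5196587-5196886. Capitals mark a stretch of 7 bases that is identical in these windows and in the window of the upstream AKR1C3 start at chr10:5048531-5048830.
AKR1C2: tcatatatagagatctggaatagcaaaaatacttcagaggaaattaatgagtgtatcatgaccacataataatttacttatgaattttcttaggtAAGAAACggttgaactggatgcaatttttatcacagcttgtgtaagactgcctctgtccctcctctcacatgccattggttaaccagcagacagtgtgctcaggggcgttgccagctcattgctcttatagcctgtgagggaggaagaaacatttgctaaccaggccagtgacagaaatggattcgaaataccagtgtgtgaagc
AKR1C3: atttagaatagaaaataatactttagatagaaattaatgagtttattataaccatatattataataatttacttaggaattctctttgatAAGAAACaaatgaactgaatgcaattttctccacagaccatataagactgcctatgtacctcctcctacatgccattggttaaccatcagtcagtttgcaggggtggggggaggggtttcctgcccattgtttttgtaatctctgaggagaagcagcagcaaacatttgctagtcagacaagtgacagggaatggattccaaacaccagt
AKR1C4: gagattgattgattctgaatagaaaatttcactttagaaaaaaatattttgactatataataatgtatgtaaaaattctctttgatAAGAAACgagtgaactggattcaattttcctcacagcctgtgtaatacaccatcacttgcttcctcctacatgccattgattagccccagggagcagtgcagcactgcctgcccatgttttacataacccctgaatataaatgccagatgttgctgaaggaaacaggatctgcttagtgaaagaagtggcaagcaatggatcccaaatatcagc
The AKR1C3 window shown was 70.1% identical to that of AKR1C2 and 61.3% identical to that of AKR1C4. A search on both strands for 6 motifs found few matches. The antioxidant response element core (TGACNNNGC), the AP-1 motif (TGANTCA) and the FOXO motif (GTAAACA) matched no member window, against 13.3%, 7.72% and 3.42% of the 34943 RefSeq windows of this length. The STAT motif matched only AKR1C2, as TTCAGAGGAA at position -218 from the start, against 6.46% of all windows. The C/EBP motif (TTGCNNAA) matched only AKR1C4, at position -14, against 10.5%. A loose NF-kB motif, which 58.6% of all windows hold, matched AKR1C2, the upstream AKR1C3 window and AKR1B1. These matches describe the letters of the windows and identify no binding site.

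All 12 fibroblast markers examined, among them COL1A1, PDGFRA and VIM, were detected on every array. Of the liver enzymes, CYP3A4 was detected on none and CYP2E1 on all. Between 17818 and 20167 probes were detected per array, at a detection p under 0.05. The IL13 arrays of passage 6 were the least alike of all replicate pairs: they correlated at 0.986 over all genes, against 0.992 to 0.996 in the other 10 pairs. The ADH1 genes are close relatives of each other, as are the AKR1C genes, so a probe may also read a relative. Between wells, a larger share of expressing cells and more RNA per cell cannot be told apart.

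Levels are log2 normalized intensities. ADH1A was detected on all 23 arrays. In Control its level was 6.93 and 6.45 in passage 6 and 8.06 and 8.07 in passage 8. In IL13 it was 7.21 and 8.11 in passage 6 and 8.32 and 8.55 in passage 8. In Pre_only it was 11.70 and 11.51 in passage 6 and 9.71 in passage 8. Passage 6 was thus the lower passage in Control and IL13 and the higher one in Pre_only, with no overlap. In Pre_IL13 ADH1A stood at 9.99 and 10.12 in passage 6 and at 9.71 and 9.64 in passage 8. In Pre_Ab_only it stood at 11.30 and 11.25 in passage 6 and at 9.96 and 9.98 in passage 8. In Pre_Ab_IL13 it stood at 10.24 and 10.33 in passage 6 and at 10.05 and 10.14 in passage 8. The primed cells of the passages thus lay much closer together after IL-13 than before it.

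ADH1B, the next gene along chromosome 4, showed a similar arrangement. It was detected on 19 arrays and not well above background on the Control and IL13 arrays of passage 6, where its signal was between 4.27 and 4.62. Its Control and IL13 levels in passage 8 ran from 4.64 to 4.76. In Pre_only it reached 8.35 and 8.03 in passage 6 and 5.59 in passage 8. Primed cells were above unprimed cells on every array of their passage. In Pre_IL13 ADH1B stood at 6.40 and 6.50 in passage 6 and at 5.98 and 6.19 in passage 8. In Pre_Ab_only it stood at 7.87 and 8.04 in passage 6 and at 6.01 and 6.35 in passage 8. In Pre_Ab_IL13 it stood at 6.52 and 6.88 in passage 6 and at 5.97 and 6.63 in passage 8, where the passages overlapped. ADH1C, the remaining gene of the cluster, was detected on 5 of 23 arrays, and its signal ran only from 4.21 to 4.91.

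AKR1C3, the prostaglandin F and androgen-forming reductase, was detected on all arrays. In Control its level was 5.69 and 5.66 in passage 6 and 7.07 and 7.25 in passage 8. In IL13 it was 5.50 and 6.13 in passage 6 and 7.09 and 7.28 in passage 8. In Pre_only it was 9.62 and 9.64 in passage 6 and 8.21 in passage 8. Passage 8 was the higher passage in Control and IL13 and the lower one in Pre_only. In Pre_IL13 AKR1C3 stood at 8.10 on both arrays of passage 6 and at 8.17 and 8.28 in passage 8. In Pre_Ab_only it stood at 9.43 and 9.49 in passage 6 and at 8.42 and 8.43 in passage 8. In Pre_Ab_IL13 it stood at 8.30 and 8.15 in passage 6 and at 8.02 and 7.94 in passage 8. Its order of groups in passage 6 was Pre_only, Pre_Ab_only, Pre_Ab_IL13, Pre_IL13, IL13 and Control, and only IL13 and Control overlapped.

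AKR1C4, a hydroxysteroid dehydrogenase best known from liver, was also detected on all arrays. In Control it was 7.24 and 6.77 in passage 6 and 7.34 and 7.45 in passage 8, and in IL13 it was 6.93 and 7.10 in passage 6 and 7.37 and 7.49 in passage 8. In Pre_only it was 10.96 and 10.68 in passage 6 and 8.91 in passage 8. The unprimed passages lay near each other and the primed ones far apart. In Pre_IL13 AKR1C4 stood at 9.24 and 9.23 in passage 6 and at 8.64 and 8.76 in passage 8. In Pre_Ab_only it stood at 10.40 and 10.36 in passage 6 and at 9.08 and 9.03 in passage 8. In Pre_Ab_IL13 it stood at 8.92 and 8.79 in passage 6 and at 8.62 and 8.47 in passage 8. IL-13 was thus accompanied by lower levels in passage 6 with and without the antibody.

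AKR1C2, which inactivates the androgen dihydrotestosterone, was detected on all arrays by 1 of its annotated probes, while the other did not pass the detection filter. Its level in passage 6 was 6.45 and 6.72 in Control, 6.84 and 6.95 in IL13, and 8.74 and 8.65 in Pre_only. In passage 8 it was 7.35 and 7.20 in Control, 7.32 and 7.26 in IL13, and 7.36 in Pre_only. In passage 8, therefore, the primed array and the unprimed arrays differed little. Pre_IL13 gave 7.41 and 7.30 in passage 6 and 7.001 and 7.11 in passage 8. Pre_Ab_only gave 8.54 and 8.44 in passage 6 and 7.55 and 7.43 in passage 8. Pre_Ab_IL13 gave 7.25 and 7.21 in passage 6 and 7.24 and 7.13 in passage 8, where the passages overlapped.

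AKR1B10, the retinal reductase, was not well above background on the Control and IL13 arrays of passage 6, at signals between 4.34 and 4.61, and in passage 8 it lay between 4.65 and 5.01 in those groups. Pre_only gave 6.96 and 6.53 in passage 6 and 5.33 in passage 8. Pre_Ab_only gave 6.48 and 6.52 in passage 6 and 5.84 and 5.67 in passage 8. In passage 6 these were its highest groups. Pre_IL13 gave 5.22 and 5.40 in passage 6 and 5.35 and 5.18 in passage 8. Pre_Ab_IL13 gave 4.95 and 5.28 in passage 6 and 4.79 and 5.04 in passage 8, so both primed groups given IL-13 overlapped between passages.

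**Figure D1:**
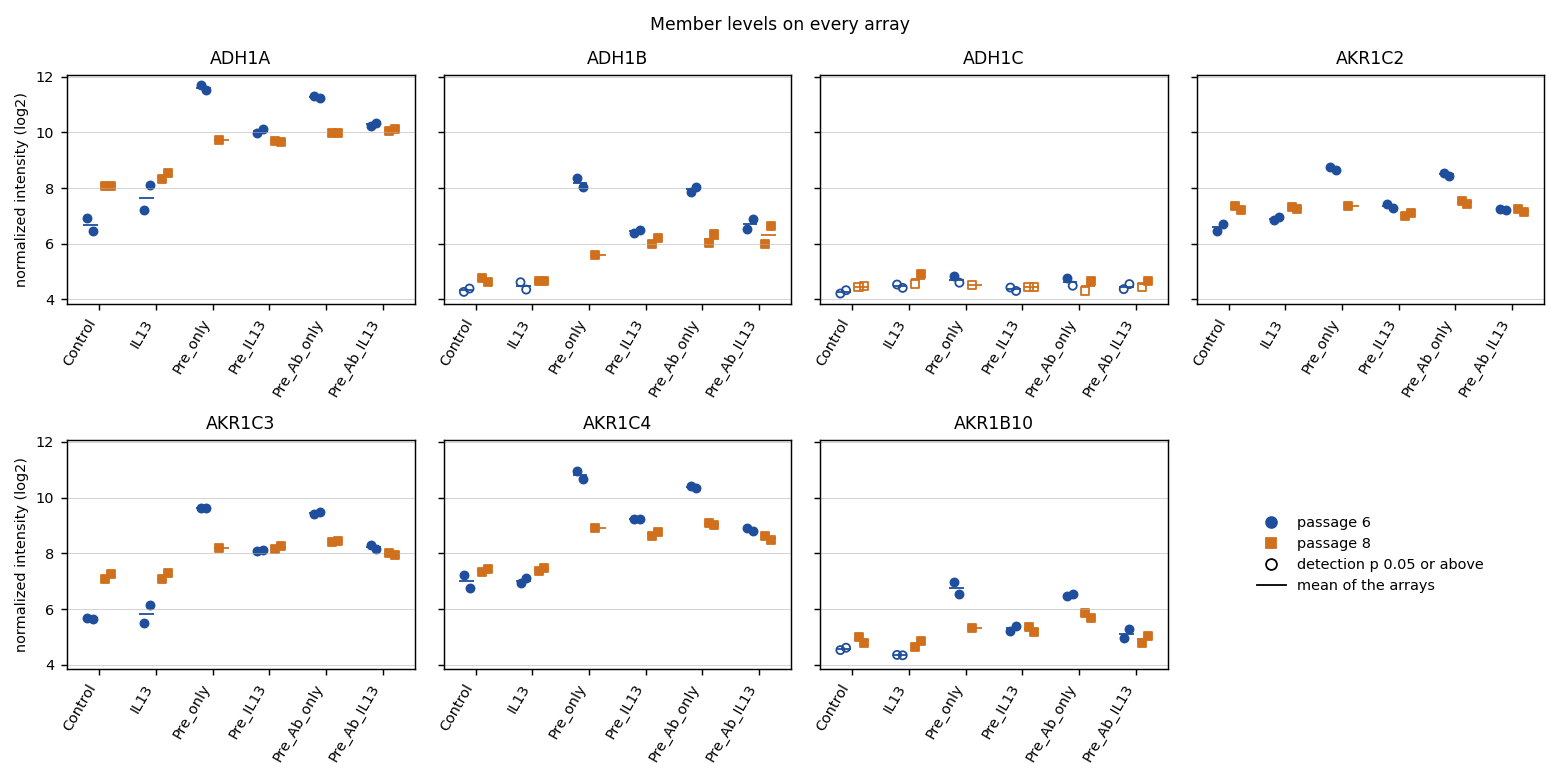
Log2 normalized intensity (y axis) of the 7 members on every array, by group (x axis) and passage (circles, passage 6; squares, passage 8); open symbols have a detection p of 0.05 or above and short lines are means. Passage 6 sits below passage 8 in Control and IL13 and above it in Pre_only and Pre_Ab_only for the 6 members other than ADH1C. In Control and IL13 of passage 6, ADH1B and AKR1B10 were not well above background. ADH1C stays between 4.21 and 4.91, near background, with means that run the same way in these groups.

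Leaving out ADH1C, the gap between the passages ran the same way in the other 6 members. All arrays of passage 6 were below all of passage 8 in 6 of 6 members in Control and in IL13, where 29.8% and 25.9% of all genes did the same. For ADH1B and AKR1B10 those arrays of passage 6 were not well above background, so their gaps there rest on signals near background. In Pre_only and Pre_Ab_only, passage 6 was above passage 8 in 6 of 6 members, where 34.1% and 24.7% of all genes did the same. The gap in Pre_Ab_only was 1.77 for ADH1B, 1.32 for AKR1C4, 1.30 for ADH1A, 1.03 for AKR1C3, 1.00 for AKR1C2 and 0.75 for AKR1B10, on the log2 scale. In Pre_Ab_IL13 the gap was at most 0.40, passage 6 was above in 3 of 6 members, against 20.4% of all genes, and the other 3 overlapped. In Pre_IL13 it ran from -0.12 for AKR1C3 to 0.54 for AKR1C4, with passage 6 above in 4 of 6 members, against 23.9% of all genes. The reversal between Control and Pre_only is what chose the members and is given as a description. Pre_Ab_only is not in the contrast of Pre_only with Control, but it holds primed cells of the same passages and beadchips.

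Priming without IL-13 was taken as the contrast behind the choice of members, so its values are described and not tested. In it 24.8% of all genes passed the threshold. In passage 6, Pre_only exceeded Control by 4.91 for ADH1A, 3.96 for AKR1C3, 3.81 for AKR1C4 and 2.11 for AKR1C2 on the log2 scale. The rise of ADH1A is a 30.1-fold difference of means. ADH1B and AKR1B10 were not well above background in the unprimed cells of passage 6, so Pre_only was at least 11.6-fold higher for ADH1B and at least 4.26-fold higher for AKR1B10. These bounds set the unprimed arrays at the lowest signal of any detected probe on the same array. In passage 8 the single Pre_only array exceeded Control by 1.65 for ADH1A, 1.52 for AKR1C4, 1.05 for AKR1C3, 0.89 for ADH1B, 0.43 for AKR1B10 and 0.08 for AKR1C2. Ranked by the difference of the rises in measured signal among 12994 genes, ADH1A held rank 1, AKR1C3 rank 3, AKR1C4 rank 6 and AKR1C2 rank 11. ADH1B and AKR1B10 are not ranked here, since their Control signal of passage 6 was not above background. ADH1C had a rise of 0.44 in passage 6 and 0.08 in passage 8, at signals near background.

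Priming was compared again among cells given IL-13, on arrays of groups other than Control and Pre_only. This is the same kind of difference as chose the members, in the same passages and beadchips, so it is no independent evidence. The additive model over all arrays, with a term for passage, called 5 of 7 members higher in Pre_IL13 than in IL13 at an adjusted p under 0.05, while 14% of all genes were called higher. ADH1A rose by 1.82 ± 0.35 (log2 change ± SE, n = 4 and 4, limma adjusted p = 0.000187), AKR1C4 by 1.75 ± 0.27 (adjusted p = 5.73e-06) and ADH1B by 1.70 ± 0.33 (adjusted p = 0.000201). AKR1C3 rose by 1.66 ± 0.35 (adjusted p = 0.000406) and AKR1B10 by 0.74 ± 0.21 (adjusted p = 0.00849). In these 5 members every Pre_IL13 array was above every IL13 array, as in 11% of all genes. AKR1C2 differed by 0.11 ± 0.23 (adjusted p = 0.77) and ADH1C by -0.19 ± 0.11 (adjusted p = 0.229), and neither passed the test. ADH1B and AKR1B10 were detected on 2 of the 4 IL13 arrays, both of passage 8, so their fitted changes rest in part on signals near background. With A and B averaged before the fit, ADH1A, ADH1B, AKR1C3 and AKR1C4 kept their calls, and AKR1B10 lost it (limma adjusted p = 0.118), as it did without background correction (0.23, adjusted p = 0.0551).

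Within passage 6 alone, Pre_IL13 exceeded IL13 by 2.40 ± 0.21 for ADH1A, 2.29 ± 0.18 for AKR1C3, 2.22 ± 0.16 for AKR1C4 and 0.46 ± 0.16 for AKR1C2 (n = 2 and 2). ADH1B was at least 3.39-fold and AKR1B10 at least 1.54-fold higher. The fit to passage 6 called 6 of 7 members higher, against 11% of all genes (21.5% in either direction). Within passage 8 the differences were 1.43 ± 0.18 for ADH1B, 1.27 ± 0.11 for AKR1C4, 1.24 ± 0.11 for ADH1A, 1.04 ± 0.12 for AKR1C3 and 0.52 ± 0.16 for AKR1B10. These 5 of 7 were called higher there, against 10.1% of all genes (19.9% in either direction), while AKR1C2 had -0.23 ± 0.12 (limma adjusted p = 0.218). Without the IL13 arrays of passage 6, the less alike pair, ADH1A (1.24), ADH1B (1.19) and AKR1C4 (1.21) were still called over all remaining arrays. AKR1C3 then had 0.91 ± 0.38 (adjusted p = 0.101) and AKR1B10 0.37 ± 0.25 (adjusted p = 0.358).

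**Figure D2:**
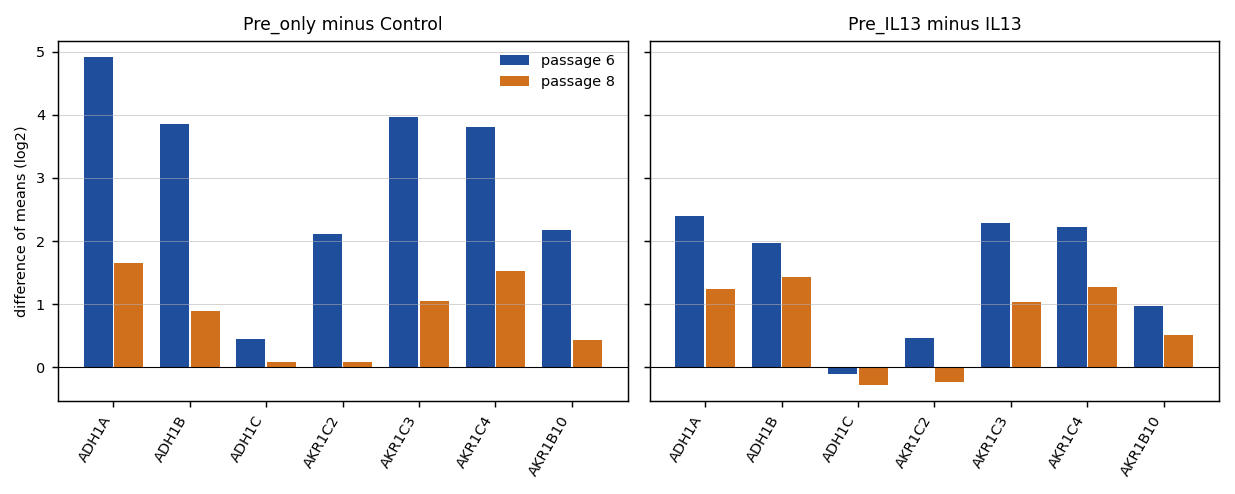
Difference of mean log2 level (y axis) between primed and unprimed cells for each member (x axis), by passage (blue, 6; orange, 8), without IL-13 (left, the contrast that chose the members) and with IL-13 (right); bars are differences of means of 1 or 2 arrays. ADH1A differed by 4.91 in passage 6 and 1.65 in passage 8 without IL-13, and by 2.40 and 1.24 with it; the passage 6 bars of ADH1B and AKR1B10 use unprimed signals that were not well above background.

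The passage difference of priming was then tested among the cells given IL-13, in a model with a mean for each group in each passage. The members were chosen for a difference of this kind, in the same passages and beadchips. The change from IL13 to Pre_IL13 was called higher in passage 6 than in passage 8 for 3 of 7 members, against 0.908% of all genes. AKR1C3 rose by 1.25 ± 0.22 more in passage 6 than in passage 8 (limma adjusted p = 0.00147). The excess was 1.16 ± 0.26 for ADH1A (adjusted p = 0.0154) and 0.95 ± 0.20 for AKR1C4 (adjusted p = 0.00948). AKR1C2 had 0.70 ± 0.19 and narrowly missed the threshold (adjusted p = 0.0504), while ADH1B had 0.54 ± 0.27, AKR1B10 0.44 ± 0.24 and ADH1C 0.17 ± 0.23. ADH1B and AKR1B10 were not detected on the IL13 arrays of passage 6, so the size of their difference is not known. ADH1C lay near background throughout. The members' median was 0.70, beside -0.00123 for all genes. Without IL13 replicate A of passage 6 the value of ADH1A was 0.71 (adjusted p = 0.0685), and without replicate B it was 1.61 (adjusted p = 1.80e-05), so these arrays decide its size. ADH1A also missed the threshold without IL13 P8-B (1.04, adjusted p = 0.0954), Pre_IL13 P6-B (1.09, adjusted p = 0.0728), Pre_IL13 P8-A (1.19, adjusted p = 0.0528) or Pre_IL13 P8-B (1.13, adjusted p = 0.0782), and AKR1C4 without IL13 P8-B (0.89, adjusted p = 0.0623) or Pre_IL13 P8-A (0.89, adjusted p = 0.0654). Without the IL13 arrays P6-A and P6-B in turn, AKR1C3 had 0.93 and 1.56 and AKR1C4 0.87 and 1.04, all called. With arrays scaled by their medians, AKR1C4 had 1.36 (adjusted p = 0.0710). When only the Pre_IL13 and IL13 arrays were fitted, ADH1A (adjusted p = 0.133) and AKR1C3 (adjusted p = 0.0593) missed the threshold.

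The unprimed cells given IL-13 were also compared between passages. Among IL13 arrays, AKR1C3 was lower in passage 6 than in passage 8 by a log2 change of -1.37 ± 0.15 (limma adjusted p = 9.07e-07) and ADH1A by -0.78 ± 0.18 (adjusted p = 0.00576). These 2 of 7 members compare with 5.63% of all genes called lower in passage 6. AKR1C4 had -0.41 ± 0.14 (adjusted p = 0.0583) and AKR1C2 -0.40 ± 0.14 (adjusted p = 0.0568). Without IL13 replicate A of passage 6 the value of ADH1A was -0.33, and without replicate B of passage 8 it was -0.66, neither of them called. On the IL13 arrays of passage 6 the mean standard error between beads was 6.998% of the AKR1C4 signal, 6.61% of that of AKR1C2 and 5.40% of that of ADH1A, against 3.89%, 4.15% and 3.84% on the other arrays. It was also higher there for AKR1C3 (4.14% against 3.63%) and ADH1C (3.50% against 3.17%). For ADH1B (2.99% against 3.15%) and AKR1B10 (2.86% against 3.22%) it was lower there, and its part in these results was not tested.

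Most members fell with IL-13 in primed cells of passage 6. Pre_Ab_IL13 against Pre_Ab_only is given first, since neither group is in the contrast of Pre_only with Control. Pre_Ab_only still holds primed cells of the same passages and beadchips. Its higher levels in passage 6 are the kind of gap that chose the members, so a fall from them is no independent evidence. In passage 6 alone, 6 of 7 members were called lower, against 0.4% of all genes (0.947% in either direction). AKR1C4 changed by -1.52 ± 0.16 (n = 2 and 2, limma adjusted p = 1.01e-05), a 2.88-fold lower signal. AKR1B10 changed by -1.39 ± 0.18 (adjusted p = 0.000122), AKR1C2 by -1.26 ± 0.16 (adjusted p = 7.61e-05) and ADH1B by -1.25 ± 0.18 (adjusted p = 0.000454). AKR1C3 changed by -1.23 ± 0.18 (adjusted p = 0.000366) and ADH1A by -0.99 ± 0.21 (adjusted p = 0.0195). ADH1C, near background, had -0.17 ± 0.16. The members' median was -1.25, beside -0.00766 over all genes. In passage 8 alone only AKR1B10, at -0.84 ± 0.16 (limma adjusted p = 0.00284), and AKR1C4, at -0.51 ± 0.11 (adjusted p = 0.0135), were called lower, against 1% of all genes (2.5% in either direction). AKR1C3, at -0.45 ± 0.12 (adjusted p = 0.0524), and AKR1C2, at -0.30 ± 0.12, were also lower but not called, and ADH1A and ADH1B had 0.12 each.

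Over both passages, the additive model called the fall of AKR1B10, at -1.11 ± 0.21 (n = 4 and 4, limma adjusted p = 0.0017), and of AKR1C4, at -1.02 ± 0.27 (adjusted p = 0.032), against 1.09% of all genes called lower (2.24% in either direction). With A and B averaged first, neither was called (adjusted p = 0.202 and 0.554), and AKR1C4 also lost its call without any 1 of 6 of the 8 arrays compared. All Pre_Ab_IL13 arrays lay below all Pre_Ab_only arrays for AKR1C2, AKR1C3, AKR1C4 and AKR1B10, as in 2.89% of all genes. The difference between the passages was tested directly. The change with IL-13 was called lower in passage 6 than in passage 8 for 3 of 7 members, against 0.077% of all genes. The difference was -1.38 ± 0.27 for ADH1B (limma adjusted p = 0.0395), which did not fall in passage 8 (0.12). It was -1.01 ± 0.20 for AKR1C4 (adjusted p = 0.0433) and -0.96 ± 0.19 for AKR1C2 (adjusted p = 0.0433). ADH1A had -1.11 ± 0.26 (adjusted p = 0.131) and AKR1C3 -0.78 ± 0.22 (adjusted p = 0.442). Only 10 genes were called in all. The others, named after their values were seen, were PDK4, ANPEP, PLAT, IL24, C11orf96, TNFSF10 and CCL7, whose changes with IL-13 in passage 6 were -2.13 for PDK4, -2.02 for TNFSF10 and between -0.21 and 1.40 for the rest. The mean of TNFSF10 in Pre_Ab_IL13 was near background in both passages. The calls of the members sit close to the threshold: leaving out single arrays gave between 0 and 5 called members. The higher levels of Pre_Ab_only in passage 6 are the same kind of passage gap that chose the members, in other wells.

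In primed cells without antibody the fall was of similar size. This comparison shares Pre_only itself with the contrast that chose the members, so it is no independent evidence either. In passage 6, Pre_IL13 was below Pre_only by -1.74 ± 0.18 for ADH1B, -1.58 ± 0.16 for AKR1C4, -1.55 ± 0.21 for ADH1A, -1.53 ± 0.18 for AKR1C3, -1.43 ± 0.18 for AKR1B10 and -1.34 ± 0.16 for AKR1C2 (log2 change ± SE). The fit to passage 6 called these 6 of 7 lower, against 0.177% of all genes (0.215% in either direction), and 2 when arrays were scaled by their medians. In passage 8, with 1 Pre_only array, 0 of 7 were called, against 0.0462% of all genes, and the values ran from -0.30 for AKR1C2 to 0.49 for ADH1B. Over both passages the additive model called 0 of 7, against 0.0308% of all genes, although 6 of 7 had an unadjusted p under 0.05. Without the lone Pre_only array of passage 8 it called 5.

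In unprimed cells no member was called lower with IL-13. The additive model called 0 of 7 in IL13 against Control, against 1.87% of all genes, and 1 member, ADH1C, had an unadjusted p under 0.05 at signals near background. ADH1A had 0.67 ± 0.35 (n = 4 and 4, limma adjusted p = 0.473), and in passage 6 alone it rose by 0.97 ± 0.21 (adjusted p = 0.0154), against 0.97% of all genes called higher there (1.8% in either direction). That value rests on IL13 arrays at 7.21 and 8.11, the least alike replicate pair. Over both passages it was 0.999 without IL13 P6-A, 0.679 without IL13 P6-B and 0.312 without Control P6-B, none of them called. With a mean for each group in each passage, a fit chosen after seeing the data, ADH1A had 0.67 ± 0.13 (limma adjusted p = 0.00164). In passage 8 alone 0 of 7 were called, against 1.12% of all genes. The Control arrays took part in the choice of members.

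**Figure D3:**
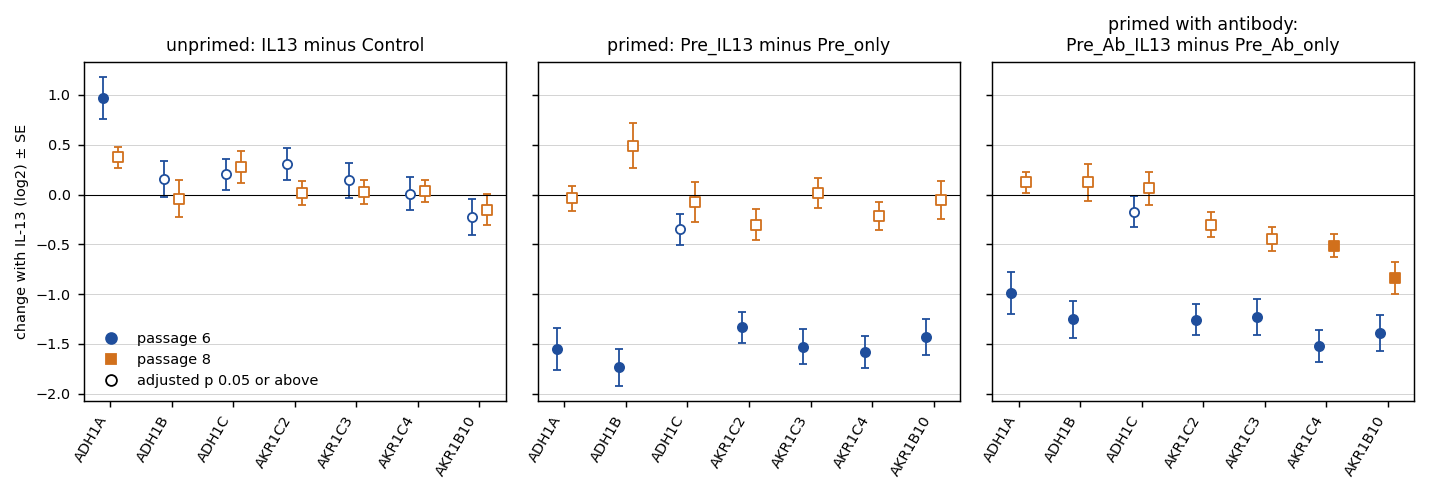
Log2 change with IL-13 ± SE (y axis) for each member (x axis) in unprimed cells, primed cells and primed cells with antibody, from fits to passage 6 (circles) and passage 8 (squares) alone; open symbols have an adjusted p of 0.05 or above. In passage 6, 6 of 7 members lie between -0.99 and -1.74 in both primed settings, while in passage 8 the values run from -0.84 to 0.49.

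The antibody comparisons called few members. In cells given priming and IL-13, the additive model called 0 of 7 in Pre_Ab_IL13 against Pre_IL13, against 0.924% of all genes, and 0 at an unadjusted p under 0.05. ADH1A had 0.33 ± 0.35 (n = 4 and 4, limma adjusted p = 0.919) over both passages, and in passage 8 alone it was higher with antibody by 0.42 ± 0.11 (adjusted p = 0.0465), against 0.939% of all genes (1.63% in either direction). In passage 6 alone 0 of 7 were called, against 0.6% of all genes. Without IL-13, Pre_Ab_only against Pre_only gave values from -0.39 to -0.10 in the additive model over both passages, with 0 of 7 called by limma, 0 of 7 at an unadjusted p under 0.05, and 0% of all genes called (659 at an unadjusted p under 0.05). The passages differed in direction: in passage 6 alone the values ran from -0.44 for AKR1C4 to -0.08 for ADH1C, while in passage 8 alone they ran from -0.04 for ADH1C to 0.59 for ADH1B and were above 0 for 6 of 7 members. Neither fit called a member, against 0% of all genes in passage 6 and 0.0077% in passage 8. In passage 8 Pre_only has a single array, which is assumed to vary like the arrays of the other groups, and the difference between the passages was not tested.

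Across the 12 means of group and passage, the 6 members other than ADH1C followed each other with Pearson correlations from 0.808 to 0.972 over 15 pairs. ADH1C correlated with them at 0.430 to 0.694. These values describe shared movement over means that come from the same arrays. The members were chosen for a shared pattern within these means, a larger rise with priming in passage 6. Among all other genes, those most like ADH1A were LAMA2, a laminin chain of the basement membrane (0.981), TMEM217 (0.978) and P2RX6, an ATP-gated channel (0.974). ADH1B was most like VASH2 (0.973), PLPP1, a lipid phosphatase (0.971) and ALDH3A2, the fatty aldehyde dehydrogenase (0.963). AKR1C2 was most like B3GALT4 (0.940), the transporter ABCA8 (0.931) and NQO1, the quinone reductase and NRF2 target (0.923). AKR1C3 was most like TMEM217 (0.972), MAOA, the monoamine oxidase (0.972) and P2RX6 (0.971). AKR1C4 was most like ABCA8 (0.979), RASL12 (0.976) and SNCAIP (0.975), and AKR1B10 was most like TNFSF10, the death ligand TRAIL (0.968), FBXO32, a ubiquitin ligase subunit of muscle wasting (0.960) and ABCA8 (0.949). ADH1C was most like ATF7 (0.898), CTSL (0.828) and ISG20 (0.804). Over the mean of all tested members, the closest genes were ABCA8 (0.978), RASL12 (0.960), TMEM217 (0.937), GLB1L (0.937) and ATMIN (0.927). In Control of passage 6 the mean levels of TNFSF10 (4.16), VASH2 (4.30), B3GALT4 (4.45), ABCA8 (4.52) and RASL12 (4.575) were near background. ATF7 means ran only from 4.38 to 4.68, also near background.

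**Figure D4:**
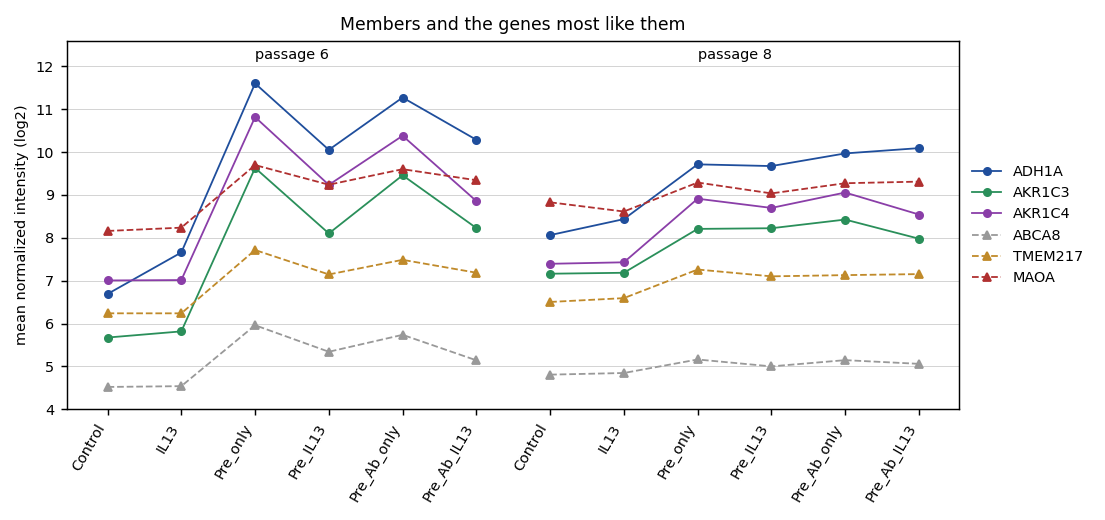
Mean log2 normalized intensity (y axis) of 3 members (solid lines) and of 3 genes with similar profiles (dashed lines) over the 6 groups (x axis), passage 6 at left and passage 8 at right; points are means of 1 or 2 arrays. ABCA8 goes from 4.52 in Control to 5.96 in Pre_only in passage 6 and from 4.81 to 5.16 in passage 8, a smaller measured range than that of ADH1A, AKR1C3 or AKR1C4. Its Control mean of passage 6 was below the lowest detected signal on those arrays (4.66 and 4.65), so its full range there is not known.

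Among these similar genes, SNCAIP rose with priming in cells given IL-13 by 1.23 ± 0.21 (limma adjusted p = 2.38e-05), PLPP1 by 1.18 ± 0.16, RASL12 by 1.12 ± 0.23 and ALDH3A2 by 1.04 ± 0.16. LAMA2 had 0.34 ± 0.13 and did not pass the test (adjusted p = 0.0548). TNFSF10 fell with IL-13 in primed cells with antibody, by -1.37 ± 0.27 on the log2 scale (adjusted p = 0.00218), and so did FBXO32, by -0.94 ± 0.23 (adjusted p = 0.0188). The measured fall of TNFSF10 was larger in passage 6, by -1.29 ± 0.24 (adjusted p = 0.0297), as it was for ADH1B, AKR1C4 and AKR1C2. TNFSF10 started from 6.33 in passage 6 and 5.25 in passage 8 in Pre_Ab_only. Its means in Pre_Ab_IL13, 4.31 and 4.52, were below the lowest detected signal on those arrays (4.60 to 4.69). The full size of its fall, and of the difference between passages, is therefore not known.

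Genes of neighbouring pathways were examined in the comparison of Pre_IL13 with IL13, in which 27.7% of all genes were called, 14% higher and 13.8% lower. Both groups received IL-13, so this comparison cannot tell priming from a changed response to IL-13. Of the list genes named below, PTGIS (1.64), KCNAB1 (0.72) and HK1 (0.66) were called higher with IL-13 in unprimed cells. RDH5 (-0.50) and CD14 (-0.46) were called lower there. Of the other alcohol dehydrogenases 3 were tested, none was higher, and ADH5, the formaldehyde-clearing class III enzyme, fell by 0.43 on the log2 scale (SE 0.12). Of 7 other aldo-keto reductase family genes, none was higher and 2 were lower: KCNAB1, a potassium channel subunit, by -1.49 ± 0.13, and AKR7A3, an aflatoxin aldehyde reductase, by -0.37 ± 0.11. The median changes of these lists were -0.09 and -0.17, beside 0.00142 for all genes.

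Aldehyde dehydrogenases, which take the next oxidation step after alcohol dehydrogenases, split in direction: 3 of 15 were higher and 4 lower. ALDH1A3, which makes retinoic acid, rose by 1.39 ± 0.25, ALDH3A2 by 1.04 ± 0.16 and ALDH2, the mitochondrial acetaldehyde enzyme, by 0.97 ± 0.12. Of 17 genes of retinoid metabolism and binding, 5 were higher and 3 lower. RARRES1, a retinoic acid-induced gene, rose by 1.39 ± 0.15, DHRS3, a retinal reductase, rose by 0.93 ± 0.15, and RDH5, a retinol dehydrogenase, fell by 1.26 on the log2 scale (SE 0.11). Of these genes ALDH1A3, RARRES1 and DHRS3 differed between passages in the opposite direction to the members. Their rise was smaller in passage 6, by -1.23 ± 0.28 for ALDH1A3 (limma adjusted p = 0.0198), -0.92 ± 0.19 for RARRES1 (adjusted p = 0.00649) and -0.91 ± 0.20 for DHRS3 (adjusted p = 0.0154). RARRES2 had -0.94 ± 0.22 (adjusted p = 0.0205).

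Of 19 NRF2 targets outside the list, 6 were higher and 1 lower, with a median change of 0.14. HMOX1, heme oxygenase, rose by 0.80 ± 0.16, the exporter ABCC3 by 0.68 ± 0.12 and PGD, of the pentose phosphate pathway, by 0.54 ± 0.12. NQO1 had 0.40 ± 0.16 and did not pass the test (limma adjusted p = 0.0581). Of 6 regulators of the pathway, 4 were higher and 0 lower, among them NFE2L1 (0.86 ± 0.09), NFE2L2, which encodes NRF2 itself (0.72 ± 0.11) and SQSTM1 (0.60 ± 0.10). None of these targets or regulators was called for a passage difference of priming in cells given IL-13, against 2.21% of all genes.

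Steroid-metabolizing genes, the partners of the AKR1C enzymes, gave 5 higher and 3 lower of 17. HSD11B1, which activates cortisone to cortisol, rose by 3.43 ± 0.14 and CYP1B1, an estrogen hydroxylase, by 2.58 ± 0.11, while HSD17B6 fell by 1.14 on the log2 scale (SE 0.20). Of this list only STS, steroid sulfatase, had a passage difference, its rise being larger in passage 6 by 0.87 ± 0.23 (limma adjusted p = 0.0393), the direction of the members. AKR1C3 acts downstream of prostaglandin synthesis, and of 17 genes of prostaglandin synthesis and breakdown 4 were higher and 3 lower. PTGES rose by 3.17 ± 0.16 and PTGS2 (cyclooxygenase-2) by 2.81 ± 0.29, and PTGIS, prostacyclin synthase, fell by 2.66 on the log2 scale (SE 0.16). The rise of PTGS2 was smaller in passage 6, by -2.37 ± 0.24 (adjusted p = 6.02e-07), opposite to AKR1C3. Of 5 polyol and fructose genes 1 was higher, the fructose transporter SLC2A5 (0.92 ± 0.13), and 1 lower, HK1 (-0.79 ± 0.10). Of 9 other carbonyl and quinone reductases 1 was higher, CBR4 (0.38 ± 0.13), and 2 were lower, DHRS7 (-0.65 ± 0.09) and DCXR (-0.42 ± 0.13).

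Markers of other cell types were read beside these results. All 6 annotated smooth muscle markers, which fibroblasts also express, were detected on all arrays and fell in the comparison of Pre_IL13 with IL13, and their summed level ran from 62.0 to 66.4 in IL13 and from 55.8 to 59.4 in Pre_IL13. Of 6 annotated hepatocyte markers, CYP2E1 was detected on all arrays, and the summed level of the 4 tested ran from 19.1 to 20.4 in IL13 and from 19.2 to 20.3 in Pre_IL13. Of these 4, 0 were higher and 1 was lower, CYP2E1, at -0.63 ± 0.14 (limma adjusted p = 0.00099). Of the adipocyte markers 3 of 6 tested were lower, of the epithelial 2 of 3, and of the endothelial 1 of 2 was higher and 1 lower. Of 12 fibroblast markers 4 were higher and 3 lower. Among leukocyte markers, 2 of 3 of which were higher, CD14 rose by 1.58 ± 0.11 and CD68 by 1.16 ± 0.14, both known also in fibroblasts. The part of cell composition in the members' rise was not tested.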

How the data were processed

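Total RNA of 23 samples was purified with Qiagen RNeasy, amplified from 300 ng with the TotalPrep kit, labelled with biotin and read on Illumina bead arrays, per the labels' protocols. The deposited scanner table holds probe intensity, not normalized, and a detection p-value per array, for 47323 probes, and the submitters' processing notes name GenomeStudio 2011.1. A table of the authors' normalized log2 values for 31390 probes was deposited too and served as an alternative. Intensities were background-corrected against negative controls inferred from the detection p-values, quantile-normalized with an offset of 16 and log2-transformed (neqc, limma 3.58.1, R 4.3.3). A probe had to be detected, at p under 0.05, on 3 or more arrays (24109 did), 14 probes without a value were dropped, and the probe with the highest mean stood for each of 12994 genes. Gene names came from the platform annotation (21332 kept probes with 1 symbol, 7 with several), updated by gene ID for 21309. Arrays give no read depth, and their number limits the precision.

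Comparisons were fitted with limma (trended empirical Bayes), as group plus passage (16 residual degrees of freedom), as 12 means of group and passage for differences between passages (11), or within a passage, with Benjamini-Hochberg adjustment over all genes and a threshold of 0.05. The model was tested on simulated data. The members and the lists were chosen with earlier results of these data known. Named genes were all members, from each list up to 3 called genes with the largest change with priming in cells given IL-13 and up to 2 with the largest passage difference of it, and the 3 genes most correlated with each member. The lists were other alcohol dehydrogenases, other aldo-keto reductases, aldehyde dehydrogenases, retinoid, steroid and prostaglandin genes, NRF2 targets and regulators, polyol genes, carbonyl reductases and markers of 7 cell types. Alternatives changed the scaling, background correction, filter, probe rule, model, array weights, replicate block and arrays. The letters A and B were not used to pair samples across groups in the main fits. Deviations of same-lettered arrays correlated at a median of 0.013 in passage 6 (from -0.26 to 0.16) and -0.002 in passage 8 (from -0.22 to 0.34).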

Additional observations from a re-analysis of the deposited data

Results flagged for a closer look

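The level of ADH1B on the IL13 array P6-B, 4.35, stood apart from the other IL13 arrays (gap over range 0.830). That array was not above background for ADH1B. It was 1 of 35 sets of 4 levels examined, and chance gives such a level in about 1 in 20 groups.

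The remaining results are 6 called differences between passages. The rise from IL13 to Pre_IL13 was larger in passage 6 by 1.16 for ADH1A, 1.25 for AKR1C3 and 0.95 for AKR1C4 on the log2 scale. The change from Pre_Ab_only to Pre_Ab_IL13 differed between passages by -1.38 for ADH1B, -0.96 for AKR1C2 and -1.01 for AKR1C4. Each was tested directly in the model with 12 means. Passage, culture and beadchip cannot be told apart in any of them.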

How the results depend on the processing

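Counts below are of 7 members called. For priming in cells given IL-13, the count was 5 without any 1 array and 3 without both IL13 arrays of passage 6. For IL-13 in unprimed cells, passage 6 alone and a mean for each group in each passage gave 1 each (main 0). For IL-13 in primed cells these gave 6 and 5 (main 0), adjustment over all 9 comparisons gave 3, and leaving out 1 array gave 0 to 5. With antibody (main 2), the count was 4 with only the groups compared, 1 with no passage term, 0 with A and B averaged, 6 in passage 6 alone and 5 with 12 means, and 1 to 3 without 1 array. The antibody with IL-13 gave 1 with only the groups compared and 1 in passage 8 alone. The passage difference of priming (main 3) was 1 with only the groups compared and 1 to 4 without 1 array, and that of IL13 cells (main 2) was 1 and 1 to 4. The passage difference of the IL-13 change with antibody (main 3) was the least stable: 0 with median scaling or with every probe by itself, 1 with no detection filter or the replicate block, 5 with no background correction, with the authors' values or adjusted over all 9 comparisons, and 0 to 5 without 1 array. The replicate block moved no other count, and whether A and B pair samples across groups is not known. Median scaling gave 2 for IL-13 in primed cells of passage 6 (main 6) and 1 with antibody in passage 8 (main 2, 1 to 2 without 1 array). The fit of 12 means in place of the additive model, the fits without both IL13 arrays of passage 6 and the changes made within 1 passage were chosen after seeing the data. The cause of these changes was not tested.

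Signs turned for members that were not called over all arrays. In Pre_Ab_only against Pre_only, in passage 8 alone ADH1A (0.26), ADH1B (0.59), AKR1C2 (0.13), AKR1C3 (0.22), AKR1C4 (0.14) and AKR1B10 (0.43) were higher with antibody. For the same comparison, median scaling gave 0.13 for ADH1B, 0.0701 for AKR1C2, 0.0760 for AKR1C3 and 0.13 for AKR1B10, only the groups compared gave 0.0929 for ADH1B and 0.0271 for AKR1B10, and A and B averaged and 12 means each gave 0.18 for ADH1B, 0.0233 for AKR1C3 and 0.0940 for AKR1B10. Without 1 array it ran from -1.01 to 0.0120 for ADH1A, -0.92 to 0.25 for ADH1B, -0.86 to 0.0266 for AKR1C3 and -0.59 to 0.20 for AKR1B10, lowest without Pre_only P8-B. In IL13 against Control, median scaling gave -0.00454 for AKR1C2, -0.0233 for AKR1C3 and -0.14 for AKR1C4, passage 8 alone gave -0.0404 for ADH1B, and leaving out 1 array gave -0.15 to 0.26 for ADH1B, -0.0455 to 0.34 for AKR1C2, -0.17 to 0.41 for AKR1C3 and -0.21 to 0.21 for AKR1C4. In Pre_Ab_IL13 against Pre_IL13, passage 6 alone gave -0.12 for AKR1C2 and 0.13 for AKR1C3, and leaving out 1 array gave -0.0416 to 0.0409 and -0.15 to 0.0233. In passage 8 alone ADH1B (0.49) and AKR1C3 (0.0154) were higher in Pre_IL13 than in Pre_only, and ADH1A (0.12), ADH1B (0.12) and ADH1C (0.0619) were higher in Pre_Ab_IL13 than in Pre_Ab_only, as was ADH1C without Pre_Ab_only P6-A (0.0308; leaving out 1 array gave -0.157 to 0.0308). AKR1C2 in Pre_IL13 against IL13 was -0.0789 with array weights, -0.23 in passage 8 alone, -0.25 without both IL13 arrays of passage 6 and -0.0123 to 0.233 without 1 array, lowest without IL13 P6-A. The passage difference of priming for ADH1C was -0.0184 to 0.350 without 1 array, lowest without IL13 P8-B. Over all genes, median scaling called 92 (main 243) for IL-13 in unprimed cells, 2 (4) in primed cells, 161 (291) with antibody, 61 (120) for antibody with IL-13, 42 (287) for the passage difference of priming, 437 (1441) for that of IL13 cells and 6 (10) for that of the IL-13 change with antibody, which was 23 without background correction and 23 in the authors' values. It moved the median of all genes by up to 0.28 on the log2 scale. Passage differences could not be fitted with A and B averaged or without both IL13 arrays of passage 6, which leave no replicates or no group. ADH1B and AKR1B10 lay near background in unprimed cells, so their fitted folds depend on the background correction.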
